A study of Mus musculus with 14 samples.

Results

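Plasma membrane carriers of the solute carrier (Slc) gene families move ions, sugars, vitamins, phosphate, amino acids, monocarboxylates and organic ions across the cell surface. The 12 families described here were Slc4a, Slc5a, Slc6a, Slc7a, Slc9a, Slc12a, Slc16a, Slc20a, Slc22a, Slc26a, Slc34a and Slc38a, without Slc9a3 and Slc26a3, and their members were chosen by symbol. Of 134 such genes with a probe on the array, 106 had a probe well above background on at least 3 arrays and were tested, among 15536 tested genes in all. For each gene the tested probe with the highest mean signal was used, and 75 of the 106 carriers were well above background on all 14 arrays. The other 28 were not tested, among them Slc12a1, Slc12a3, Slc5a2, Slc5a5, Slc9a4, Slc26a1, Slc34a1 and Slc34a3.

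In the colon, epithelial cells take up sodium, short-chain fatty acids and other solutes from the lumen, and carriers on their luminal and basolateral faces set the direction of transport. Sodium-coupled carriers (Slc5a, Slc6a, Slc20a, Slc34a) use the sodium gradient to bring in nutrients, whereas exchangers and cotransporters (Slc4a, Slc9a, Slc12a, Slc26a) move bicarbonate, protons, chloride and sulphate. Many of the same families also serve nerve, muscle, stromal and immune cells, all of which are present in a sample of whole colon.

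Gene expression was measured in RNA of whole colon. The mice were C57BL/6 females, 4 to 6 months old, with 1 array for each sample. Flox mice carried floxed alleles of Nr3c1, which encodes the glucocorticoid receptor (GR), without Cre. GR iKO mice carried the same floxed alleles and Villin-cre, a constitutive Cre expressed in the intestinal epithelium, so that other cells of the colon kept the gene. Both genotypes were kept for 7 days on regular water or on 2.5% dextran sulfate sodium (DSS), an agent that damages the epithelium of the colon and induces colitis. There were 4 Flox water, 3 Flox DSS, 4 GR iKO water and 3 GR iKO DSS arrays. In such bulk samples, fewer cells of a type and less RNA per cell cannot be told apart.

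Levels are given as log2 processed signal minus the 75th percentile of its array, so 0 is a signal equal to that percentile and every rise or fall is relative to it. The share of probes well above background per array was 62.6% to 71.2%, and the 75th percentile itself ranged from a signal of 262 in Flox DSS replicate 4 to 1003 in Flox water replicate 2. Nr3c1 was lower in GR iKO than in Flox mice on water (0.19 to 0.57 against 1.05 to 1.38, 57.3% of the Flox signal, exact permutation p = 0.0286). On DSS it stood at 56.1% of Flox (exact permutation p = 0.1, the smallest that 3 against 3 arrays can give). Where the probe lies relative to the floxed exon was not analysed here. Scaled to the spike-in controls instead, the median of all genes moved by -2.35 with DSS in Flox and by -0.93 in GR iKO mice, and that of the carriers by -2.37 and -0.88. Epithelial marker genes (10 genes such as Epcam, Krt8 and Vil1) were well above background on every array. Flox DSS replicate 4 and GR iKO DSS replicate 3 stood apart, each with the highest signal in its group for 8 exocrine pancreas genes (Cpa1, Cela2a, Cela3b, Prss2, Pnlip, Cel, Cpb1 and Ctrb1, a list chosen after their values were seen). The mean of these genes relative to the water arrays was 8.88 in Flox DSS replicate 4 against 3.46 and 5.29 in the other Flox DSS arrays, and 5.90 in GR iKO DSS replicate 3 against -5.02 and -4.75. It ranged from -6.33 to 3.87 on the water arrays.

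Promoter sequences are shown for 4 called carriers of phosphate, glucose, butyrate and lactate, whose values on every array are given further on. Each is the stretch of 250 bases before the transcription start in the RefSeq promoter table (GRCm38.p6, plus strand, 5' to 3'). Slc20a1 lies at chr2:129198523-129198772 (the more upstream of 2 starts in the table), Slc5a1 at chr5:33103969-33104218, Slc5a8 at chr10:88885742-88885991 and Slc16a3 at chr11:120948817-120949066. Capitals mark ACGTG, the core of the hypoxia response element, and AGAACA, a hexamer of the glucocorticoid response element, each searched on both strands.
Slc20a1: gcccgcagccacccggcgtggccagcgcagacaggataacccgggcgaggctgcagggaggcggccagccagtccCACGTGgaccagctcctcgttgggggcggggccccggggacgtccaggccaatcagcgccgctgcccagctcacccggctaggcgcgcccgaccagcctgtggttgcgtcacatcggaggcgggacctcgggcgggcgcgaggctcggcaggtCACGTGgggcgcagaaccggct
Slc5a1: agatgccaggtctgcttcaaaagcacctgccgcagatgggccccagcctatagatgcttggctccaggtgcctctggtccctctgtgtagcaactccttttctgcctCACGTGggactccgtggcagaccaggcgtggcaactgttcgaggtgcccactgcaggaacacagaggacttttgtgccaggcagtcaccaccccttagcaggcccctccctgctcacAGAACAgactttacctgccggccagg
Slc5a8: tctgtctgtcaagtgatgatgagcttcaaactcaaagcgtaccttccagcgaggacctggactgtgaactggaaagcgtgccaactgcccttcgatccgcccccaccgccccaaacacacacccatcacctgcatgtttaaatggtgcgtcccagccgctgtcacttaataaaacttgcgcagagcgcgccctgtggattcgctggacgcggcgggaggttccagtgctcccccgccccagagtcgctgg
Slc16a3: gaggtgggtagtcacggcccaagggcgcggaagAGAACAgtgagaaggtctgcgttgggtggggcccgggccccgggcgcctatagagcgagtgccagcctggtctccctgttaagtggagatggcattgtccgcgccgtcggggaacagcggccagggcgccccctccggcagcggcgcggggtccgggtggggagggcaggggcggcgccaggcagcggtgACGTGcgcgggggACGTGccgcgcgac
Where the capitals read CACGTG, the 2 strands each hold an overlapping match, so Slc20a1 counts 4 matches at 2 places. ACGTG occurred in 22.7% of the 75 carriers with a promoter in the table and in 16.5% of all 27025 promoters of the same length. AGAACA occurred in 13.3% against 16.1%, TGANTCA (the AP-1 site) in 10.7% against 6.85%, TATAAA in 12% against 13%, and CAAAGTCCA (an HNF4 site) in 0 of 75 against 0.377%. Slc5a8 held none of these 5 strings. These matches describe letters only.

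With DSS, carriers were called in both directions in each genotype, and 40 of them had the same call in Flox and GR iKO mice. In Flox mice 23 of 106 carriers rose (21.7%) and 27 fell (25.5%), against 24.9% and 24.5% of all tested genes (limma, adjusted p under 0.05 over all probes). In GR iKO mice 22 rose (20.8%) and 23 fell (21.7%), against 21.7% and 20.2% of all genes. These shares were near those of all genes. Slc4a11, Slc6a2 and Slc26a9 passed the filter of at least 3 arrays well above background only through DSS arrays, where they were high. Their calls enter the counts here and below as a description only. The median change of the carriers was -0.05 in Flox and 0.05 in GR iKO mice, against -0.03 and -7.7e-05 over all genes. The groups compared did not overlap for 22 of 23 risers and 26 of 27 fallers in Flox and for 22 of 22 and 22 of 23 in GR iKO mice. Of all genes called higher or lower, the groups did not overlap for 97% and 95.8% in Flox and for 95.5% and 94.6% in GR iKO mice, so these shares were near the background too. Each called change of a carrier had the same sign on every slide that held both groups. For carriers without overlap this follows from the lack of overlap, so it is not a separate check. With normexp background correction the Flox split was 32 higher and 21 lower in place of 23 and 27, and with a quality weight for each array it was 28 higher and 40 lower.

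Of the carriers, 18 rose in both genotypes (17%, against 17.2% of all genes), 22 fell in both (20.8% against 15.5%), 0 moved in opposite directions and 51 were called in neither (48.1% against 41.5%). Another 5 were called higher and 5 lower in Flox mice alone, and 4 higher and 1 lower in GR iKO mice alone. Both genotypes were tested against their own water controls, so these sets share no arrays, and a call in one genotype alone does not show a difference between genotypes. Spike-in scaling shifts all changes of a comparison by about the same amount, -2.32 in Flox and -0.93 in GR iKO mice. The 27 Flox and 23 GR iKO fallers therefore had to stay below 0, which is no check of them. The share of risers that stay above 0 was not computed over all genes. Of the risers, 7 of 23 stayed above 0 in Flox (among them Slc16a4, Slc38a3, Slc38a4, Slc5a7, Slc6a2 and Slc7a2) and 19 of 22 in GR iKO mice.

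**Figure D1:**
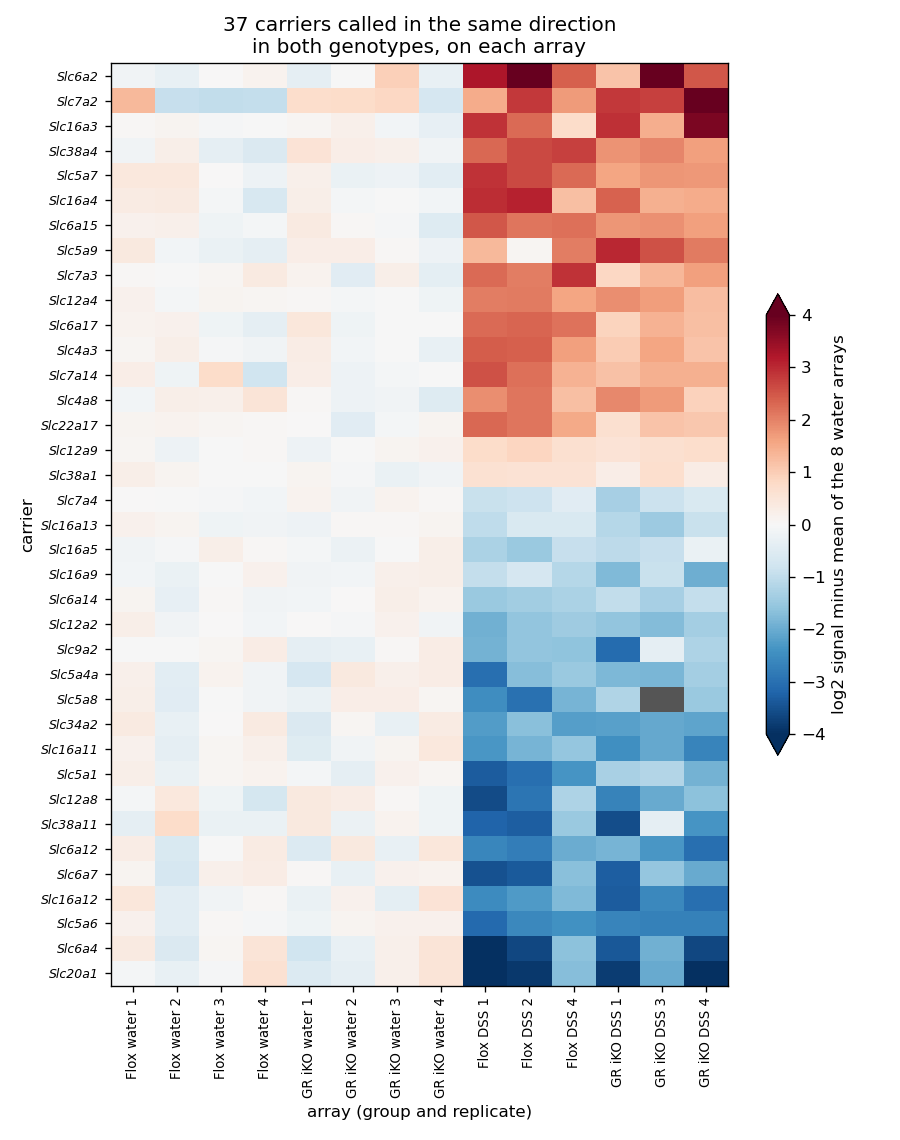
Level of 37 of the 40 carriers called in the same direction in both genotypes, on each of the 14 arrays (columns), as log2 signal minus the mean of the 8 water arrays (colour, limited to -4 and 4, grey where missing). The 17 carriers shown that rose relative to the array percentile fill the upper rows and the 20 that fell the lower rows, with the water arrays near 0.

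Of the phosphate carriers, Slc20a1 and Slc34a2 fell in both genotypes and Slc20a2 was not called. Slc20a1, a sodium-phosphate cotransporter found in most cells, read 5.85, 5.62, 5.88 and 6.53 in Flox water and 1.60, 2.06 and 4.22 in Flox DSS. It read 5.37, 5.58, 6.12 and 6.43 in GR iKO water and 2.12, 3.90 and 1.88 in GR iKO DSS. All 6 DSS arrays were below all 8 water arrays, with the widest spread on DSS. The fall was 10.1-fold in Flox (log2 -3.34, SE 0.59, adjusted p = 0.000696) and 9.46-fold in GR iKO mice (-3.24, SE 0.59, adjusted p = 0.00122). A dimmer probe of Slc20a1 also fell, by 1.65 and 1.24 on the log2 scale. Slc34a2, the sodium-phosphate cotransporter of the intestinal brush border, read -2.93 to -2.28 in Flox water and -4.86, -4.31 and -4.84 in Flox DSS. The GR iKO arrays read -3.21 to -2.30 on water and -4.83, -4.70 and -4.74 on DSS. Its groups did not overlap in either genotype, and it fell 4.41-fold and 4-fold (adjusted p = 0.000204 and 0.0005), although with normexp the Flox change was -0.59 and not called. Slc20a2, the other member of the Slc20a family, changed by 0.01 and 0.10.

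Sodium-coupled carriers of sugars, vitamins and short-chain fatty acids (Slc5a, 10 tested) comprised 4 fallers and 2 risers in each genotype. These were 40% and 20%, against 24.5% and 24.9% of all genes in Flox and 20.2% and 21.7% in GR iKO mice. Slc5a1, the sodium-glucose cotransporter of the intestinal brush border, read 1.33, 0.82, 1.17 and 1.24 in Flox water and -2.22, -1.91 and -1.26 in Flox DSS. Its GR iKO values were 1.00, 0.75, 1.27 and 1.17 on water and -0.21, -0.09 and -0.80 on DSS. DSS arrays lay below water arrays in both genotypes, and the 3 GR iKO DSS arrays lay above the 3 Flox DSS arrays. Slc5a1 fell 7.67-fold in Flox (log2 -2.94, SE 0.26, adjusted p = 7.15e-06) and 2.66-fold in GR iKO mice (-1.41, SE 0.26, adjusted p = 0.00126), and its other tested probe fell by 2.63 and 1.18. Slc5a6, which carries biotin and pantothenate, read 1.60, 1.02, 1.48 and 1.41 in Flox water and -1.65, -1.14 and -0.99 in Flox DSS. GR iKO values were 1.27, 1.55, 1.60 and 1.62 on water and -1.20, -1.26 and -1.27 on DSS. Its falls were of like size in both genotypes, 6.22-fold (adjusted p = 4.93e-06) and 6.74-fold (adjusted p = 5.39e-06).

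Slc5a8, the sodium-coupled carrier of butyrate and other monocarboxylates, read 4.60, 3.91, 4.35 and 4.22 in Flox water and 1.89, 1.36 and 2.51 in Flox DSS. Levels in GR iKO were 4.11, 4.64, 4.64 and 4.42 on water and 3.16 and 2.87 on DSS, with no value for replicate 3. It fell 5.11-fold in Flox (adjusted p = 9.19e-05) and 2.71-fold in GR iKO mice (adjusted p = 0.00737, from 2 DSS arrays), and the latter call was lost without GR iKO DSS replicate 4 (-1.30). Slc5a4a fell to signals not well above background on any DSS array, at least 1.74-fold in Flox and at least 2.49-fold in GR iKO mice.

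The risers of this family were Slc5a7 and Slc5a9. Slc5a7, the choline transporter of cholinergic neurons, read -4.23 to -3.60 in Flox water and -1.15, -1.38 and -1.76 in Flox DSS. The GR iKO levels were -4.44 to -3.81 on water and -2.44, -2.27 and -2.29 on DSS. It rose 5.4-fold and 3.62-fold (adjusted p = 2.62e-05 and 0.000264) with no overlap between water and DSS. Slc5a9, a sodium-coupled hexose carrier, read -0.88 to -0.14 in Flox water and 0.77, -0.42 and 1.53 in Flox DSS, which overlapped. In GR iKO mice it went from between -0.73 and -0.25 on water to 2.51, 2.03 and 1.57 on DSS, a rise of 5.51-fold (adjusted p = 0.00038). The Flox rise of 2.35-fold (adjusted p = 0.0172) was not called without Flox DSS replicate 4 (0.78) or replicate 1 (1.16).

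**Figure D2:**
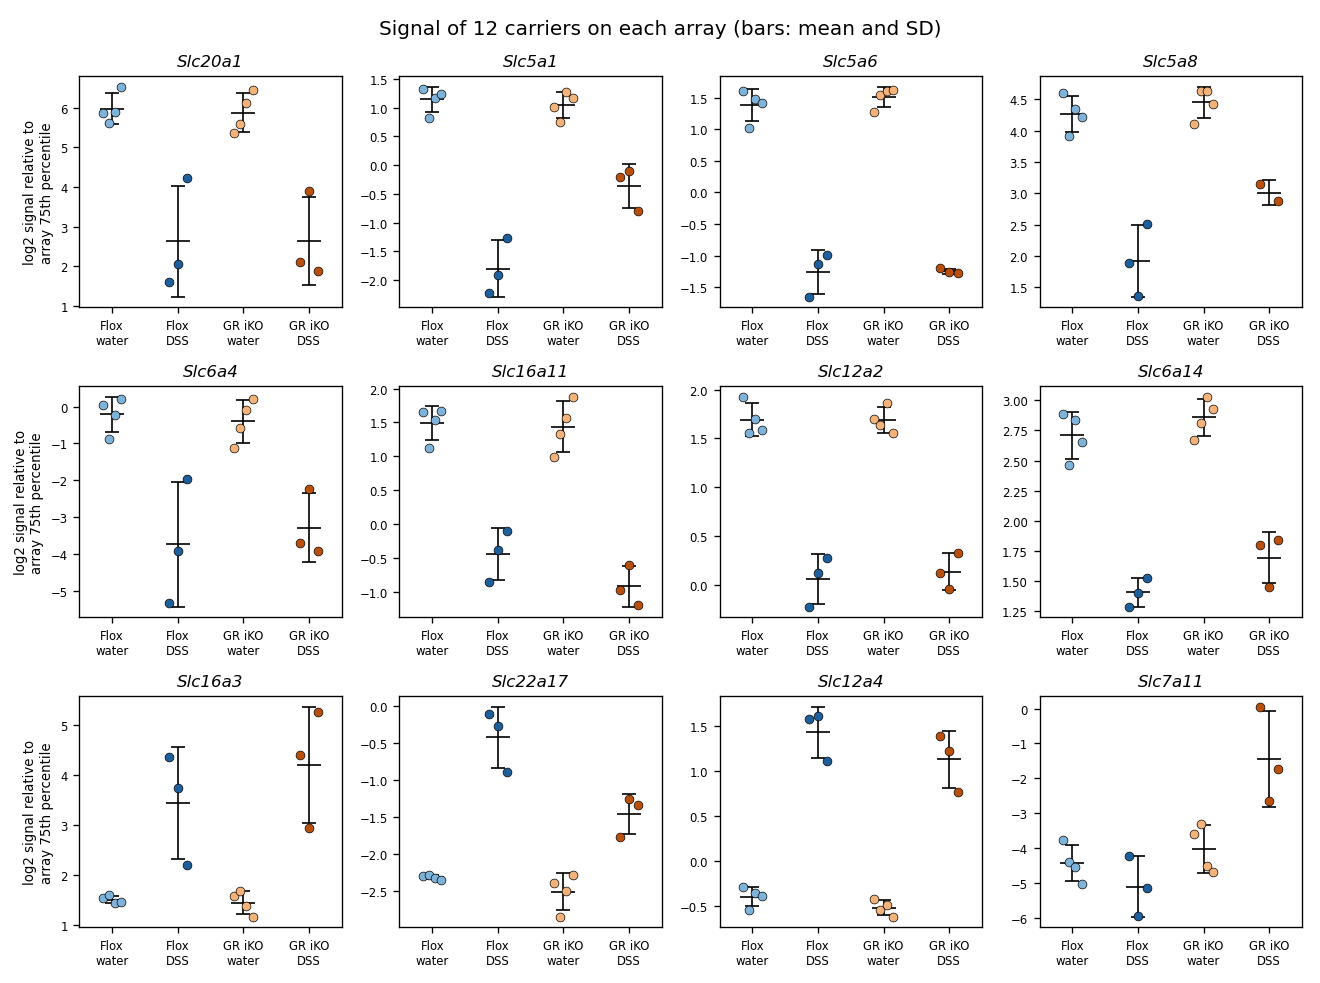
Log2 signal relative to the array's 75th percentile for 12 carriers in the 4 groups (points are arrays, bars the mean and SD of each group, n = 3 or 4, with 2 values for Slc5a8 in GR iKO DSS). The first 8 panels hold carriers that fell with DSS in both genotypes, Slc16a3, Slc22a17 and Slc12a4 rose in both, and Slc7a11 was called higher in GR iKO mice alone.

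Among monocarboxylate carriers (Slc16a, 13 tested), 3 rose and 5 fell, the same 8 genes in both genotypes. That is 23.1% and 38.5%, against 24.9% and 24.5% of all genes in Flox and 21.7% and 20.2% in GR iKO mice. Slc16a3, which exports lactate from glycolytic cells, read 1.53, 1.60, 1.45 and 1.47 in Flox water and 4.37, 3.74 and 2.20 in Flox DSS. Arrays of GR iKO read 1.57, 1.67, 1.38 and 1.17 on water and 4.40, 2.94 and 5.25 on DSS. The water arrays were tight and the DSS arrays spread over more than 2 log2 units in each genotype, yet none overlapped. Slc16a3 rose 3.8-fold in Flox (log2 1.93, SE 0.45, adjusted p = 0.00378) and 6.73-fold in GR iKO mice (2.75, SE 0.45, adjusted p = 0.000578). Slc16a4 rose 5.34-fold in Flox mice (adjusted p = 0.00067) and, from signals not well above background in GR iKO water, at least 3.08-fold in GR iKO mice (adjusted p = 0.00648).

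The monocarboxylate carriers that fell were Slc16a5, Slc16a9, Slc16a11, Slc16a12 and Slc16a13. Slc16a11 read 1.65, 1.12, 1.53 and 1.66 in Flox water and -0.86, -0.39 and -0.10 in Flox DSS. Its GR iKO values were 0.99, 1.32, 1.56 and 1.88 on water and -0.97, -0.60 and -1.19 on DSS, again without overlap. It fell 3.83-fold (adjusted p = 0.000314) and 5.13-fold (adjusted p = 0.000134). Slc16a13 lies next to Slc16a11 on chromosome 11 with no other protein-coding gene between them, and it also fell in both genotypes, by 0.74 and 1.18 on the log2 scale. Slc16a12, a creatine transporter, fell 4.47-fold and 7.96-fold (adjusted p = 0.000543 and 9.62e-05), and with normexp its Flox change was -0.62 and not called. Slc16a9 and Slc16a5 fell by 0.87 and 1.25 in Flox and by 1.59 and 0.71 in GR iKO mice. Slc16a1, the main butyrate and lactate carrier of the colonocyte, did not pass the test by its brightest probe (-0.24 and -0.17), whereas another of its probes fell by 1.32 and 0.93 and the third changed by -0.31 and -0.22 and was not called.

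Amino acid and neurotransmitter carriers of the Slc6a family (15 tested) comprised 3 risers in both genotypes, 5 fallers in Flox and 4 in GR iKO mice. Risers were 20% in each genotype, against 24.9% (Flox) and 21.7% (GR iKO) of all genes. Fallers were 33.3% in Flox and 26.7% in GR iKO mice, against 24.5% and 20.2% of all genes. Slc6a4, the serotonin reuptake transporter, read 0.05, -0.89, -0.22 and 0.20 in Flox water and -5.34, -3.94 and -1.96 in Flox DSS. GR iKO values were -1.12, -0.59, -0.10 and 0.21 on water and -3.70, -2.23 and -3.94 on DSS. All DSS arrays were below all water arrays, although the Flox DSS arrays spanned more than 3 log2 units. The fall was 11.6-fold in Flox (log2 -3.53, SE 0.67, adjusted p = 0.00108) and 7.42-fold in GR iKO mice (-2.89, SE 0.67, adjusted p = 0.00504). With normexp the Flox change of Slc6a4 was -2.08. Slc6a14, which takes up neutral and cationic amino acids, read 2.46 to 2.88 in Flox water and 1.29, 1.41 and 1.53 in Flox DSS. Levels in GR iKO were 2.67 to 3.03 on water and 1.80, 1.45 and 1.84 on DSS. It fell 2.46-fold and 2.24-fold (adjusted p = 0.000123 and 0.000404).

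Slc6a12, the betaine and GABA transporter, fell 5.49-fold and 5.27-fold (adjusted p = 0.000677 and 0.00115). Its neighbour Slc6a13 on chromosome 6 did not pass the test (0.60 and -0.58). Slc6a7, a proline transporter, fell 7.09-fold and 4.93-fold (adjusted p = 0.000394 and 0.00212). Slc6a6 (taurine), Slc6a8 (creatine) and Slc6a19 (neutral amino acids) did not pass the test, with changes of -0.06, -0.40 and -0.79 in Flox and 0.26, -0.19 and -0.31 in GR iKO mice. Slc6a3, the dopamine transporter, was called lower in Flox mice from dim signals, and no fold is given.

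The Slc6a risers are carriers known from neurons. Slc6a2, the noradrenaline transporter, was not well above background on the 8 water arrays, and 2 of 3 DSS arrays measured it in each genotype. It passed the filter on dim probes only through the DSS arrays, where it was high. Its calls are counted, but its values are given as a description with no fold. It read -4.35, -3.58 and -5.19 in Flox DSS and -6.46, -3.29 and -5.13 in GR iKO DSS. Slc6a15, a neutral amino acid carrier, rose 4.72-fold and 3.44-fold (adjusted p = 3.43e-05 and 0.000264). Slc6a17, a carrier of synaptic vesicles, read -3.74 to -3.23 in Flox water and -1.14, -1.06 and -1.22 in Flox DSS. The GR iKO levels were -3.56 to -2.95 on water and -2.50, -2.01 and -2.20 on DSS. It rose 4.96-fold and 2.14-fold (adjusted p = 1.78e-05 and 0.00341), and the GR iKO DSS arrays lay below the Flox DSS arrays.

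Markers of enteric nerve moved with these carriers and with Slc5a7. All 7 tested of 8 markers (among them Uchl1, Elavl4 and Snap25) rose in both genotypes, with median changes of 2.57 and 1.53. Their mean relative to the water arrays was 1.98 to 2.60 in Flox DSS and 1.23 to 1.83 in GR iKO DSS, against -0.19 to 0.28 on water, while Ret was not well above background on any array. Smooth muscle markers rose in Flox mice (7 of 8, mean relative level 1.13 to 1.64) and 0 of 8 were called in GR iKO mice (-0.54 to 0.56). Their part in the carrier changes was not tested. The epithelial marker list had 2 genes higher and 4 lower in Flox, with a mean relative level of -0.52 to 0.00, and 2 higher and 0 lower in GR iKO mice, with 0.04 to 0.48. Neutrophil markers rose in both (median changes 3.56 and 5.65), fibroblast and matrix markers likewise (1.36 and 0.98, 6 of 6 genes), macrophage markers rose in 5 and 7 of 8 genes, and B and plasma cell markers fell in 5 and 2 of 6 genes. For these lists too the part in the changes of single carriers was not tested.

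**Figure D3:**
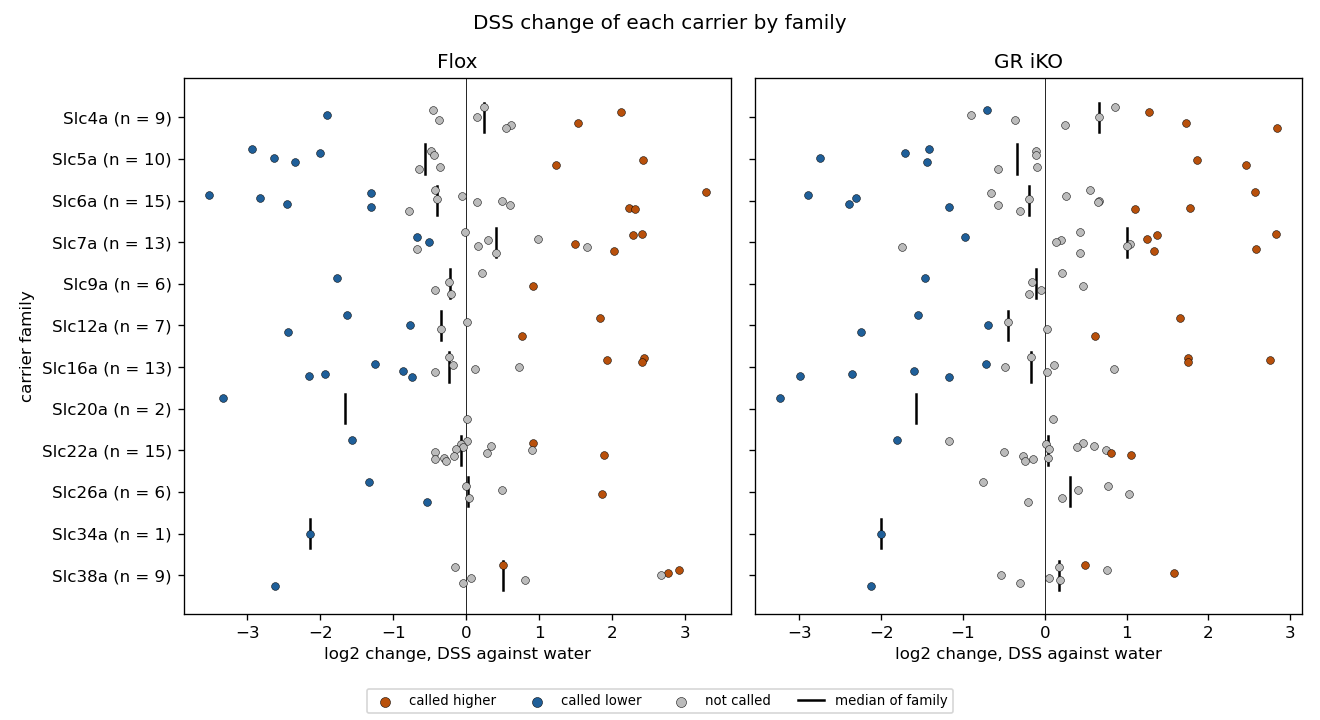
Log2 change with DSS, relative to the array's 75th percentile, for each carrier (point) by family in Flox (left) and GR iKO mice (right), coloured by call, with the family median as a bar. Slc6a4 (-3.53 and -2.89) and Slc20a1 (-3.34 and -3.24) lie among the lowest points in both genotypes, and the Slc7a medians are 0.41 and 1.00 (-1.91 and 0.07 with spike-in scaling).

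Carriers of cationic and large neutral amino acids (Slc7a, 13 tested) had 4 risers and 2 fallers in Flox (30.8% and 15.4%, against 24.9% and 24.5% of all genes) and 5 risers and 1 faller in GR iKO mice (38.5% and 7.69%, against 21.7% and 20.2%). The family median was 0.41 and 1.00, and with spike-in scaling it was -1.91 in Flox and 0.07 in GR iKO mice. Slc7a3, a cationic amino acid carrier, read -3.76 to -3.40 in Flox water and -1.47, -1.71 and -0.87 in Flox DSS. Arrays of GR iKO read -4.21 to -3.51 on water and -2.93, -2.42 and -2.12 on DSS. It rose 4.88-fold and 2.59-fold (adjusted p = 6.92e-05 and 0.0029). Slc7a14 rose 4.1-fold and 2.53-fold (adjusted p = 0.00234 and 0.0283). Slc7a2, an arginine transporter, was not well above background on any GR iKO water array and rose at least 4.77-fold in GR iKO DSS, a call lost without GR iKO DSS replicate 4 (2.40). Its Flox rise of 5.3-fold (adjusted p = 0.0294) was lost when any of several single arrays was left out (1.99 to 2.67) and by quantile normalization (2.24).

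Slc7a11, the cystine-glutamate exchanger that supplies cysteine for glutathione, read -3.77, -4.41, -4.55 and -5.03 in Flox water and -4.22, -5.96 and -5.14 in Flox DSS. The GR iKO arrays read -3.60, -3.30, -4.53 and -4.69 on water and 0.05, -2.65 and -1.73 on DSS. The 3 GR iKO DSS arrays were above all 11 others. It rose 6.02-fold in GR iKO mice (log2 2.59, SE 0.66, adjusted p = 0.00834) and changed by -0.67 in Flox mice (adjusted p = 0.43). The GR iKO rise was not called without GR iKO DSS replicate 1 (1.84), and the other tested probes of Slc7a11 rose by 3.26 and 1.97 in GR iKO mice. In Flox mice the change was 0.33 with normexp and 0.35 by the second probe, neither of them called. The brightest probe was well above background on 1 of 3 Flox DSS arrays.

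Slc7a5, the large neutral amino acid exchanger of growing cells, rose 2.37-fold in GR iKO mice (adjusted p = 0.0372), a call lost in several alternatives (1.05 without GR iKO water replicate 4), and changed by 0.98 in Flox mice, not called. The Flox change of Slc7a5 was called in several alternatives, among them equal weights (0.98) and normexp (0.84). Slc7a8, its counterpart of the basolateral membrane, rose 2.82-fold in Flox mice (adjusted p = 0.0147) and changed by 1.04 in GR iKO mice, not called. The Flox call was lost without Flox DSS replicate 1 or replicate 4 (1.54 and 1.27), and the GR iKO change was called in 7 alternatives, among them equal weights and the slide block (0.92). Slc7a4 fell 1.6-fold and 1.96-fold (adjusted p = 0.00533 and 0.000787), and the Flox call was lost without Flox DSS replicate 1 (-0.59). Slc7a7, an exporter of cationic amino acids, fell 1.43-fold in Flox mice (adjusted p = 0.0244). Slc7a1 and Slc7a9 did not pass the test in either genotype.

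In the Slc38a family of small neutral amino acid carriers (9 tested), 3 rose and 1 fell in Flox and 2 rose and 1 fell in GR iKO mice. The shares were 33.3% and 11.1% in Flox (24.9% and 24.5% of all genes) and 22.2% and 11.1% in GR iKO mice (21.7% and 20.2%). Slc38a4 read -5.97 to -5.13 in Flox water and -3.07, -2.74 and -2.64 in Flox DSS. Its GR iKO values were -5.53 to -4.82 on water and -3.59, -3.42 and -3.73 on DSS. It rose 6.82-fold and 2.99-fold (adjusted p = 1.95e-05 and 0.00122). It was well above background on 2 of 4 Flox water arrays, and with normexp the rises were 1.37 and 0.88 on the log2 scale. Slc38a1, a glutamine carrier, rose 1.41-fold in both (adjusted p = 0.0187 and 0.0241). The Flox call was lost without Flox DSS replicate 1 or replicate 2 (0.49 and 0.50), and the GR iKO call without GR iKO DSS replicate 3 or replicate 4 (0.37 and 0.55) and by another probe (0.15). Its neighbour on chromosome 15, Slc38a2, did not pass the test by its brightest probe (-0.15 and 0.17) although another probe rose by 0.65 and 1.23. Slc38a3, a glutamine carrier of liver, brain and pancreas, read -4.57, -4.77 and 0.33 in Flox DSS, against -6.74 to -4.80 on water. The value of 0.33 was that of replicate 4, the array with the highest exocrine pancreas signal, and without it the rise of 7.56-fold (adjusted p = 0.0365) became 1.25 on the log2 scale and was not called. Slc38a11 was called lower in both, was not well above background in Flox DSS (at least 1.72-fold lower) and changed by 0.12 in Flox mice with normexp, where it was not called. Its GR iKO change of -2.12 was also not called with normexp (-0.15), without GR iKO DSS replicate 1 (-1.40) or without replicate 4 (-1.99).

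Among bicarbonate transporters (Slc4a, 9 tested), 2 rose and 1 fell in Flox and 3 rose and 1 fell in GR iKO mice. The GR iKO risers counted include Slc4a11, which is described below without a test. The shares were 22.2% and 11.1% in Flox (24.9% and 24.5% of all genes) and 33.3% and 11.1% in GR iKO mice (21.7% and 20.2%). Slc4a3, an anion exchanger of excitable tissues, read -2.82 to -2.44 in Flox water and -0.26, -0.28 and -1.01 in Flox DSS. GR iKO values were -2.95 to -2.38 on water and -1.64, -1.09 and -1.53 on DSS. It rose 4.34-fold and 2.43-fold (adjusted p = 2.64e-05 and 0.00116). Slc4a8, a sodium-dependent chloride-bicarbonate exchanger of neurons, rose 2.9-fold and 3.3-fold (adjusted p = 0.00103 and 0.000719). Slc4a2, the basolateral anion exchanger of epithelia, fell 1.63-fold in GR iKO mice (adjusted p = 0.00885) and changed by -0.46 in Flox mice (adjusted p = 0.056). The GR iKO call was lost without GR iKO DSS replicate 1 or replicate 3 (-0.57 in each case). The Flox change was called in several alternatives, among them quality weights (-0.51) and the slide block (-0.49).

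Slc4a4, the electrogenic sodium-bicarbonate cotransporter, was well above background on all 8 water arrays and on 0 of 3 Flox DSS arrays, a fall of at least 1.94-fold (adjusted p = 0.00753). With normexp its Flox change was 0.19, and without Flox DSS replicate 1 it was -1.33, neither of them called. Slc4a11 read -7.34 to -6.81 in Flox water, -6.52, -7.52 and -5.72 in Flox DSS and -7.54 to -7.10 in GR iKO water, none of which was well above background. On the GR iKO DSS arrays it read -3.43, -4.89 and -5.05, all well above background. Slc4a11 passed the filter on dim probes only through the GR iKO DSS arrays, where it was high, so its values are given as a description with no test. With normexp its GR iKO change was 0.76 in place of 2.84. Slc4a1 and Slc4a7 did not pass the test by their brightest probes, while 2 other probes of Slc4a7 were called in Flox mice in opposite directions (2.69 and -0.62).

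The cation-chloride cotransporters (Slc12a, 7 tested) gave the same 5 calls in both genotypes, 2 higher and 3 lower. These were 28.6% and 42.9%, against 24.9% and 24.5% of all genes in Flox and 21.7% and 20.2% in GR iKO mice. Slc12a2, which loads chloride into secretory epithelial cells from the basolateral side, read 1.93, 1.56, 1.70 and 1.58 in Flox water and -0.23, 0.12 and 0.28 in Flox DSS. Levels in GR iKO were 1.70, 1.64, 1.86 and 1.55 on water and 0.12, -0.05 and 0.33 on DSS. The water and DSS arrays were clearly apart, and the fall was 3.1-fold in Flox (log2 -1.63, SE 0.17, adjusted p = 2.07e-05) and 2.94-fold in GR iKO mice (-1.56, SE 0.17, adjusted p = 4.73e-05). Slc12a4, a potassium-chloride cotransporter found in most cells, read -0.55 to -0.29 in Flox water and 1.58, 1.61 and 1.11 in Flox DSS. The GR iKO levels were -0.62 to -0.43 on water and 1.39, 1.22 and 0.77 on DSS. It rose 3.55-fold and 3.14-fold (adjusted p = 7.1e-06 and 2.21e-05). Slc12a8 fell 5.42-fold and 4.74-fold (adjusted p = 0.00115 and 0.00271), and Slc12a9 rose 1.7-fold and 1.53-fold.

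Of the sodium-proton exchangers (Slc9a, 6 tested), Slc9a2, an apical exchanger of the gut, read -1.16 to -0.86 in Flox water and -3.04, -2.70 and -2.75 in Flox DSS. Arrays of GR iKO read -1.51 to -0.86 on water and -4.21, -1.49 and -2.39 on DSS, where replicate 3 overlapped the water arrays. It fell 3.42-fold and 2.77-fold (adjusted p = 0.00426 and 0.0153), but without GR iKO DSS replicate 1 the GR iKO change was -0.71 and not called. Slc9a7 was called higher in Flox mice (0.92), and its other probe changed by 0.06.

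The anion exchangers of the Slc26a family (6 tested) gave 1 riser and 2 fallers in Flox (16.7% and 33.3%, against 24.9% and 24.5% of all genes). They gave 0 calls in GR iKO mice, where 21.7% of all genes were called higher and 20.2% lower. There 0 also had an unadjusted p under 0.05, against 7795 of 15536 genes. Slc26a2, the sulphate transporter used for mucin and matrix sulphation, read 2.94 to 3.57 in Flox water and 1.45, 1.30 and 3.07 in Flox DSS, which overlapped. It fell 2.51-fold there (adjusted p = 0.0234), a call lost without Flox DSS replicate 1 or replicate 2, and changed by -0.75 in GR iKO mice, not called. Slc26a9, a chloride carrier and the riser counted, read -8.28 to -6.56 in Flox water and -5.65, -6.37 and -4.12 in Flox DSS. Only 1 of these 3 DSS arrays and 0 of the 4 Flox water arrays measured it well above background. Slc26a9 passed the filter only through DSS arrays, so its call is counted as a description and no fold is given. The call was lost without Flox DSS replicate 4 (1.24) or replicate 1 (2.00). Slc26a11 fell 1.45-fold in Flox mice (adjusted p = 0.0311), a call lost without any one of the 3 Flox DSS arrays or without Flox water replicate 4 (-0.62 to -0.47). Slc26a6 did not pass the test by its brightest probe (0.49 and 0.41), whereas its other probe was called higher in both genotypes (0.66 and 0.46). The Flox change of the brightest probe was called with normexp (0.49), the slide block (0.55) and the replicate block (0.54).

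The organic ion carriers (Slc22a, 15 tested) gave 2 risers and 1 faller in each genotype, and 11 were called in neither. The called shares were 13.3% and 6.67%, against 24.9% and 24.5% of all genes in Flox and 21.7% and 20.2% in GR iKO mice. Slc22a17, a receptor for lipocalin-2, read -2.35 to -2.28 in Flox water and -0.11, -0.27 and -0.89 in Flox DSS. The GR iKO arrays read -2.84 to -2.28 on water and -1.76, -1.25 and -1.34 on DSS. It rose 3.69-fold and 2.07-fold (adjusted p = 3e-05 and 0.00217). Slc22a4, the ergothioneine transporter, rose 1.89-fold in Flox mice (adjusted p = 0.00857), a call lost without Flox DSS replicate 2 (0.69). Slc22a16 rose 1.75-fold in GR iKO mice (adjusted p = 0.0259), and Slc22a5, the carnitine transporter, did not pass the test (-0.07 and 0.01).

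**Figure D4:**
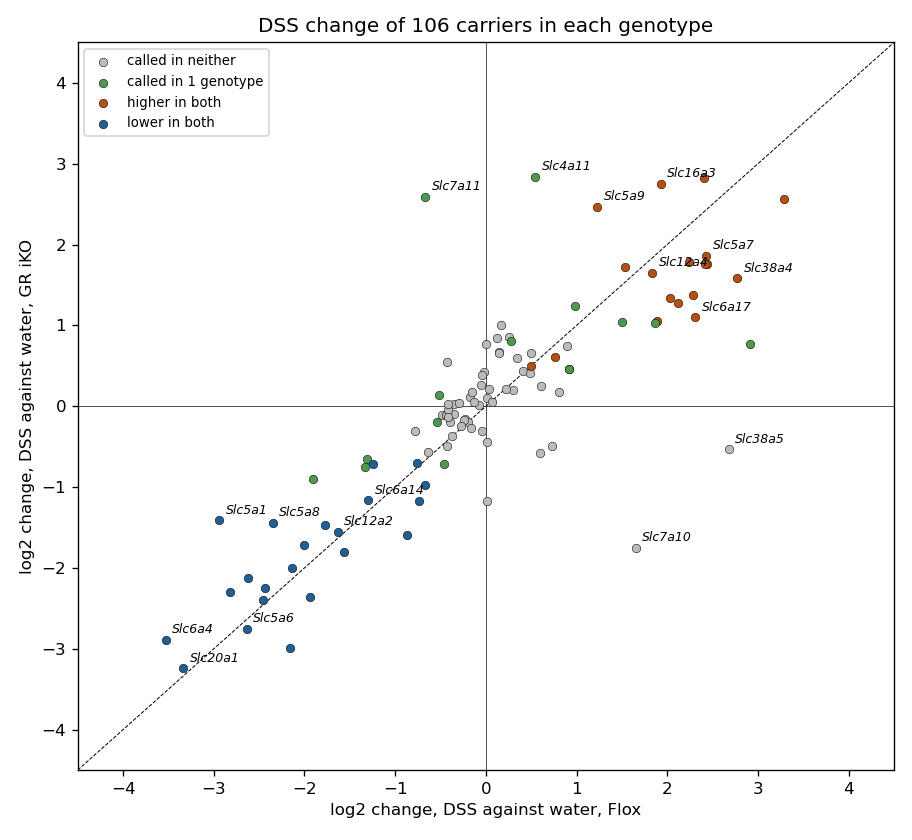
Log2 change with DSS of the 106 carriers, relative to the array's 75th percentile, in Flox (horizontal axis) and GR iKO mice (vertical axis), coloured by the genotypes in which a carrier was called. The 18 carriers called higher and 22 called lower in both genotypes lie in the upper right and lower left, and 0 carriers were called in opposite directions.

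Subunits and regulators of these carriers were read beside them (23 genes chosen by known function, 22 tested). In Flox mice 6 rose and 7 fell (27.3% and 31.8%, against 24.9% and 24.5% of all genes), and in GR iKO mice 6 rose and 6 fell (27.3% each, against 21.7% and 20.2%). Slc3a1, the heavy chain that brings Slc7a9 to the membrane, rose by 2.92 and 2.27 on the log2 scale, while Slc7a9 did not pass the test. Slc3a2, the heavy chain of Slc7a5, Slc7a7, Slc7a8 and Slc7a11, rose by 0.49 in GR iKO mice and changed by 0.16 in Flox mice, not called. Of the chaperones of the monocarboxylate carriers, basigin (Bsg) fell by 0.66 and 0.70 and embigin (Emb) rose by 2.12 and 2.56.

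Kinases that regulate the Slc12a cotransporters moved in part: Stk39 fell by 1.23 and 1.19 and Wnk4 by 1.54 and 1.58, whereas Oxsr1 rose by 0.41 and 0.42. Nedd4l, a ubiquitin ligase that acts on membrane carriers, rose by 2.14 and 1.57. Car2, a cytosolic carbonic anhydrase, fell by 2.05 and 1.89. Atp1b1, a subunit of the sodium pump, fell by 1.07 in Flox mice. The carriers had 45 further tested probes. Their call differed from that of the brightest probe for 15 of 45 in Flox and 12 of 45 in GR iKO mice. In 0 cases were both probes called in opposite directions. A called probe could still oppose a brightest probe that was not called, as for Slc38a2 in Flox mice (0.65 against -0.15).

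Between genotypes, no carrier was called on water, on DSS or for the genotype by DSS interaction. On water 0 of 106 carriers were called by limma, against 0.0257% of all genes. At an unadjusted p under 0.05 there were 433 of 15536 genes and 3 carriers. The 5 with the smallest p were Slc6a6 (GR iKO minus Flox -0.23), Slc38a4 (0.43), Slc4a8 (-0.41), Slc5a7 and Slc38a1, each with an adjusted p = 0.9999. For Slc6a6, the taurine transporter, the Flox arrays read 2.93 to 3.29 and the GR iKO arrays 2.72 to 2.92, without overlap. It was picked by its p in this comparison, so this is not a separate result.

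On DSS 0 carriers were called, against 0.0257% of all genes. At an unadjusted p under 0.05 there were 3067 of 15536 genes and 15 of 106 carriers. Slc4a11 is left out of the order by p, for the reason given with its levels, and its difference on DSS was 2.13, or 0.02 with normexp. Among the others, the smallest p belonged to Slc7a11, with a GR iKO minus Flox difference of 3.67 (95% interval 1.84 to 5.50, adjusted p = 0.0857), and to Slc5a1, with 1.43 (0.71 to 2.15, adjusted p = 0.088). With normexp the difference of Slc7a11 was 1.59 and by its second probe 2.07. Slc22a17 followed with -1.03 (-1.61 to -0.44, adjusted p = 0.099) and Slc6a17 with -1.10 (-1.76 to -0.44, adjusted p = 0.107). The 3 GR iKO DSS arrays did not overlap the 3 Flox DSS arrays for any of these 4. These carriers were picked by their p in this same comparison, so the lack of overlap is not a separate result. For the interaction, 0 carriers and 0% of all genes were called. At an unadjusted p under 0.05 there were 2533 of 15536 genes and 15 carriers. Those with the smallest p, again without Slc4a11 (2.30, or 0.064 with normexp), were Slc5a1 (1.53, adjusted p = 0.145), Slc6a17 (-1.21, adjusted p = 0.163), Slc7a11 (3.26, adjusted p = 0.168, with 1.46 under normexp and 1.61 by its second probe) and Slc6a13 (-1.17, adjusted p = 0.172).

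The number called on DSS depended on how the spread between DSS arrays was modelled. With equal weights 15 carriers were called (5 higher and 10 lower in GR iKO mice), 14.2% of the carriers against 14.8% of all genes. With a quality weight for each array 16 were called (15.1% against 17.3%). Without Flox DSS replicate 4, or without GR iKO DSS replicate 3, 4 carriers were called, and without both arrays 15 (8 higher and 7 lower, 14.2% against 13.8%). For the interaction, 11 were called with quality weights (10.4% against 11.4%) and 10 without both arrays (9.43% against 7.55%). In each of these settings the share of carriers was near that of all genes. Slc7a11, Slc5a1, Slc22a17 and Slc7a10 were each called on DSS in 4 of the 5 settings. Slc7a10, a small neutral amino acid exchanger of brain and adipose tissue, read -3.19, -1.17 and -1.60 in Flox DSS and -5.86, -2.78 and -5.72 in GR iKO DSS. Adipocyte markers had a mean relative level of 0.51 to 2.56 in Flox DSS and -1.77 to 1.00 in GR iKO DSS, and their part in this difference was not tested.

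**Figure D5:**
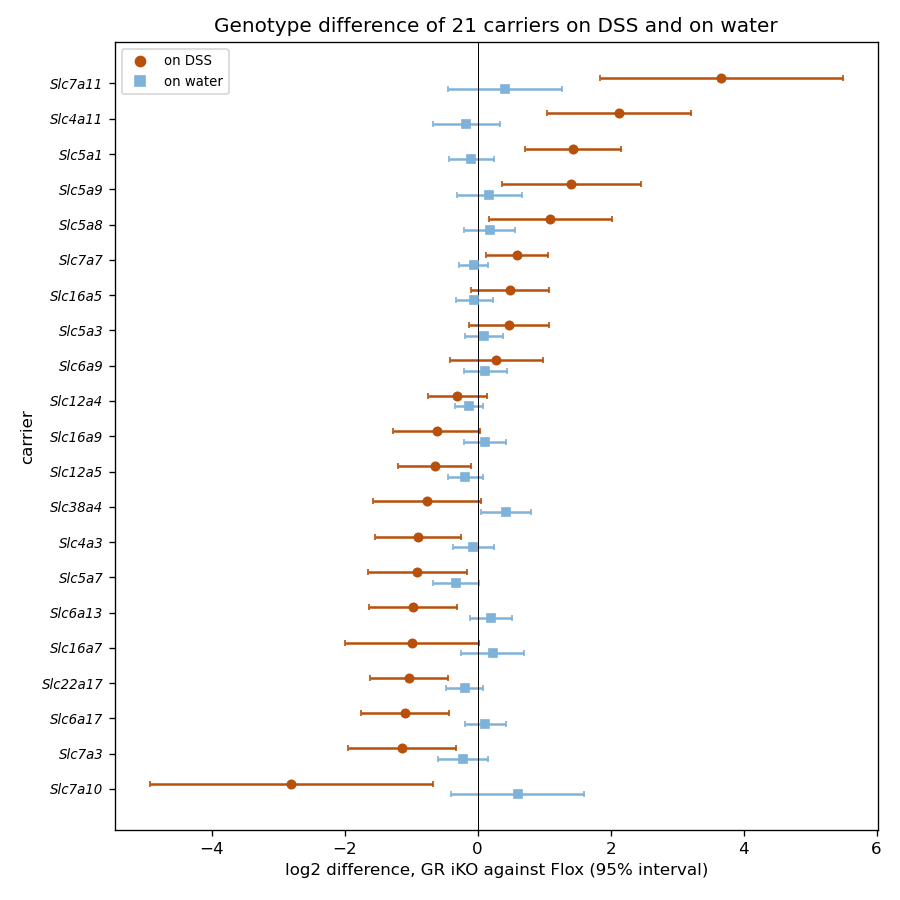
Difference between GR iKO and Flox mice (log2, points, with 95% intervals as bars) on DSS and on water for 21 of the 22 carriers called on DSS in at least 1 of the 5 alternative settings (the other is not reported here), none of which was called in the design used here. Intervals on DSS are wider than on water, and Slc7a11 is at 3.67 on DSS (1.59 with normexp). Slc4a11 is drawn as a description, since it passed the filter on dim probes only through the GR iKO DSS arrays.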

How the data were processed

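Whole colon RNA (500 ng per sample) was hybridised to Agilent mouse 1-colour (Cy3) arrays. The deposited scanner files hold intensity values that the authors extracted with Agilent Feature Extraction (12.0.0.7 in the file headers), background-subtracted per spot, and the deposited series table holds log2 values of the same arrays, used as an alternative. The submitters' processing notes name Partek 6.6, and how the study tested its arrays is not given in the sources used here. Each of 14 arrays had 45018 spots. After 1639 control spots were left out, spots were averaged to 41174 probes, and gProcessedSignal was put on the log2 scale and centred on the array's 75th percentile. Of 29245 probes with a RefSeq accession, 28223 matched a symbol. The 29519 probes well above background on at least 3 arrays were tested, 97 of them with missing values, and no spot was saturated. The number of arrays limits the precision.

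The 4 group means were fitted with limma 3.58.1 (R 4.3.3, lmFit and eBayes, two-sided), with 1 array weight for each treatment, since the variance on DSS was 3.39 times that on water. Benjamini-Hochberg adjustment ran over all probes, and a gene was called at an adjusted p under 0.05. Where a probe was not well above background on any array of a group, the fold is a lower bound, computed against the lowest signal well above background. The fit was tested on simulated data. Alternatives were other weights, normexp (on gMedianSignal, since the files hold no mean signal), quantile normalization, the deposited table, other filters and probes, slide or replicate number as a block, and leaving out arrays. Replicate numbers did not pair the samples. P-values measure the spread between these samples.

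The members and lists were chosen with earlier results of these data known. Named genes were a panel of 40 chosen by function, the largest rise and fall without overlap in each family for DSS in each genotype, and for genotype differences those called or the 5 with the smallest p. Others named were chosen after their values were seen. Promoters came from a RefSeq table (GRCm38.p6), which held 75 of the 106 carriers. A few genes enter the counts but are not reported here by name.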

Additional observations from a re-analysis of the deposited data

Results flagged for a closer look

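Genes named by the rules above were examined in each water group, 1 set being 1 gene on the 4 arrays of 1 group. These 106 sets are not the 106 carriers, and carriers outside those rules were not examined. In 6 sets the distance of 1 array from its nearest neighbour exceeded Dixon's 95% critical share of the range of the set. By chance about 1 set in 20 does so. Slc7a9 was at 0.29 in GR iKO water replicate 4, against -1.33 to -1.07 on the other arrays of that group, and Slc7a2 was at -7.49 on the same array, against -6.13 to -6.00. Slc7a1 was at 0.13 in GR iKO water replicate 1, against -0.65 to -0.52. In Flox water replicate 1, Slc7a2 was at -5.53, against -7.80 to -7.74, and Slc9a7 was at -3.63, against -3.33 to -3.27. Slc38a11 was at -3.77 in Flox water replicate 2, against -4.86 to -4.77.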

How the results depend on the processing

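The 4 counts of carriers called with DSS stayed within 1.5 times their value in all alternatives. Leaving out single arrays gave 18 to 25 (Flox higher), 18 to 29 (Flox lower), 18 to 24 (GR iKO higher) and 18 to 24 (GR iKO lower). With the replicate number as a block they were 26, 27, 24 and 25. For the genotype difference on DSS the counts were 15 with equal weights, 16 with quality weights, 0 to 4 without single arrays and 15 without Flox DSS replicate 4 and GR iKO DSS replicate 3, and for the interaction 11 with quality weights and 10 without both arrays. The carriers' median change was 0.30 with normexp and -2.37 with spike-in scaling in Flox and -0.88 with spike-in scaling in GR iKO mice. Nr3c1 on water (-0.80) was not past the threshold with equal weights, the slide block, the replicate block, the groups compared alone, without both arrays or without Flox water replicate 3 (-0.81), and ranged from -0.86 to -0.74 without single arrays. On DSS (-0.83) it passed with equal weights, with quality weights (-0.91), without both arrays (-0.94) and, among single arrays left out (-0.93 to -0.74), only without Flox DSS replicate 4 (-0.93). Of 64 calls of named genes, 38 held in every alternative. Among the 38 are those of Slc6a2 and Slc4a11, which passed the filter only through DSS arrays. Slc38a11 (0.12) and Slc4a4 (0.19) turned direction in Flox with normexp and Slc38a2 (0.65) with its other probe. The cause was not tested. Signals near background limit, among others, Slc4a4, Slc38a11, Slc26a9, Slc6a2, Slc4a11, Slc5a4a, Slc7a2 and Slc38a4.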

Other observations

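Of 106 carriers, 23 had their highest value on Flox DSS replicate 4, the array with the highest exocrine pancreas signal (8.88), and 18 of these were called with DSS in neither genotype. On the other 13 arrays 0 to 13 carriers had their highest value. The same count over all tested genes was not made. Flox DSS replicate 4 also had the lowest 75th percentile (a signal of 262), on which its values are centred. Among the 18, Slc38a5, a glutamine carrier, read 3.28 there and -4.67 to -0.49 on the other arrays, Slc5a10 read -1.08 there and Slc4a9 read -0.83. Slc38a5 on GR iKO DSS replicate 3, which stood apart for the same genes, read -0.49, against -4.58 and -4.67 on the other GR iKO DSS arrays. These genes were picked after their values were seen, and no test was run.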
